A study of Homo sapiens with 12 samples.

Results

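CYP51A1, TM7SF2 and LSS encode enzymes of the middle stretch of cholesterol synthesis, and their ratios were compared between 5 drugs given to H460 cells, an established human lung cancer line. They are 3 of the 5499 genes represented on the array, each measured by 1 probe, and were found by gene symbol in the platform annotation. They were chosen with their ratios on these arrays known, so their values are given as a description and without a test. The other genes of the pathway were tested.

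LSS (lanosterol synthase) closes linear oxidosqualene into the ring system of lanosterol. CYP51A1, a cytochrome P450 of the endoplasmic reticulum, then removes a methyl group from lanosterol, and TM7SF2 reduces the ring double bond that this step leaves behind. LBR, a protein of the inner nuclear membrane, carries the same reductase activity as TM7SF2. Cells raise transcription of the pathway through the sterol-sensing SREBP factors when membrane cholesterol is low, and dividing cells need its product for new membrane.

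Each array compared RNA of treated and untreated H460 cells in 2 channels, and 12 arrays were analysed. Treatment lasted 24 h in every case. The groups were 5-fluorouracil (5-FU, a thymidylate synthesis inhibitor) at 1 µM, cytarabine (a deoxycytidine analogue) at 0.2 µM, cisplatin (a platinum agent that crosslinks DNA) at 5 µM, paclitaxel (which stabilises microtubules) at 5 nM and cytochalasin D (which blocks actin polymerisation) at 0.2 µM, each against untreated cells. There were 4 arrays for 5-FU, read as 2 replicates in both channel orientations. The remaining drugs had 2 arrays apiece, always with the treated sample in channel 1. Each drug was used at a single dose, so drug and dose cannot be told apart. The labels do not say whether the replicates were separate cultures or whether drugs shared untreated RNA, so p-values measure the spread between these samples, which may be technical.

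The deposited values are log ratios of the channels. Their base is not stated and was taken as log2. Which channel is on top is not stated either; the likely direction was set so that the p53 targets MDM2 and CDKN1A were higher in 5-FU, where they averaged 1.48 and 2.49, and the same sign was used on every array. All ratios below are treated over untreated, centred on the median of their array. A ratio gives no level, so the 3 genes cannot be ranked by abundance, and markers of other cell types could be seen only as ratios. Since RNA of whole cultures was compared, fewer cells of one kind and less RNA per cell cannot be told apart. The 5-FU arrays lacked 21.5 to 46.7% of probe values and the others 6.44 to 14.5%. The median absolute difference between replicates over all features was 0.0871 to 0.124, which is the scale against which the ratios can be read.

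The 250 bases before the start site of each gene are shown because SREBP binds sterol pathway promoters beside the factors NF-Y and SP1 or CREB, and these windows hold the motifs by which the 3 genes differ. The sequences are RefSeq's on build GRCh38.p14. LSS is on the minus strand at chr21:46228775-46229024, CYP51A1 on the minus strand at chr7:92134478-92134727 and TM7SF2 on the plus strand at chr11:65111622-65111871. For CYP51A1 the annotation also holds a longer transcript that starts further upstream. Capitals mark the NF-Y box (CCAAT) or the CRE core motif (TGACG) on either strand.
LSS: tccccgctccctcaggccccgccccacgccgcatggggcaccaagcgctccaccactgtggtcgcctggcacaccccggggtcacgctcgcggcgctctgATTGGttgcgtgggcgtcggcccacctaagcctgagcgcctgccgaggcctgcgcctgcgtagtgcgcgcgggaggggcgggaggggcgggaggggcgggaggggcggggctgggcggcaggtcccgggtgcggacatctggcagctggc
CYP51A1: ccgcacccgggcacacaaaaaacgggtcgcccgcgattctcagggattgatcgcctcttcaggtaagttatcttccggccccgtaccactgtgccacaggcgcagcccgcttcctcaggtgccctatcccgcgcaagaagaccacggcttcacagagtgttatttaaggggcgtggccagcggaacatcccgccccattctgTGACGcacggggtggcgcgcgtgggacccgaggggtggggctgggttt
TM7SF2: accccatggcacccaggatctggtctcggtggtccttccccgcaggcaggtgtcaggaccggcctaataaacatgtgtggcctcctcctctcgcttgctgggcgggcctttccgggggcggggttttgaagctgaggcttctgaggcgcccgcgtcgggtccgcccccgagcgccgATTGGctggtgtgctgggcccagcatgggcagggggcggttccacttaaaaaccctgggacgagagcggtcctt
LSS and TM7SF2 held 1 NF-Y box each and CYP51A1 none, while CYP51A1 held 1 CRE core motif and LSS and TM7SF2 none. The GC box bound by SP1 (GGGCGG) matched 6 times for LSS, 4 times for TM7SF2 and 1 time for CYP51A1. The sterol regulatory element spelled TCACNCCAC was not found in these 3 windows. Over 35116 promoter windows of the same length, searched on both strands, 32.0% held an NF-Y box, 42.6% a GC box, 21.2% a CRE core motif and 0.883% the sterol element. Of the 13 sterol synthesis genes on the array 12 had a window, all but SQLE, and 9 of these 12 held an NF-Y box, 10 a GC box, 5 a CRE core motif and 0 the sterol element. A match is a description of the letters and not a binding site.

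CYP51A1 had the widest spread of the 3 genes between drugs. Its ratio was 0.35 on both paclitaxel arrays, 0.00 and -0.07 on the cytarabine arrays, -0.31 and -0.29 on the cytochalasin D arrays, and -0.49 and -0.44 on the cisplatin arrays. On these 8 arrays no drug overlapped another, and replicates lay closer together than the drugs did. The 5-FU arrays with treated RNA in channel 1 read -0.31 and -0.54, while the single value with treated RNA in channel 2 was 0.22 and the other was missing. The sign of CYP51A1 in 5-FU therefore differed between orientations of the same comparison.

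TM7SF2 was highest in paclitaxel, at 0.59 and 0.41, and lowest in cisplatin, at -0.19 and -0.06. Cytarabine read 0.28 and 0.21 and cytochalasin D 0.09 and 0.11. In 5-FU the arrays with treated RNA in channel 1 gave 0.21 and 0.14 and those with treated RNA in channel 2 gave -0.01 and 0.02. Cisplatin was the one drug with both values below 0, and both paclitaxel values were above those of all other arrays.

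LSS was above 0 on all 12 arrays, which neither of the other genes was. Its ratio was 0.24 and 0.02 in 5-FU with treated RNA in channel 1 and 0.48 and 0.30 with treated RNA in channel 2. Cytarabine gave 0.37 and 0.34, cisplatin 0.04 and 0.21, paclitaxel 0.22 and 0.25, and cytochalasin D 0.32 and 0.16. The cytarabine values were above those of the other drugs in the same orientation, and cisplatin, paclitaxel, cytochalasin D and 5-FU were closer to one another than their replicates allowed to separate, save that both paclitaxel values exceeded both cisplatin values.

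**Figure D1:**
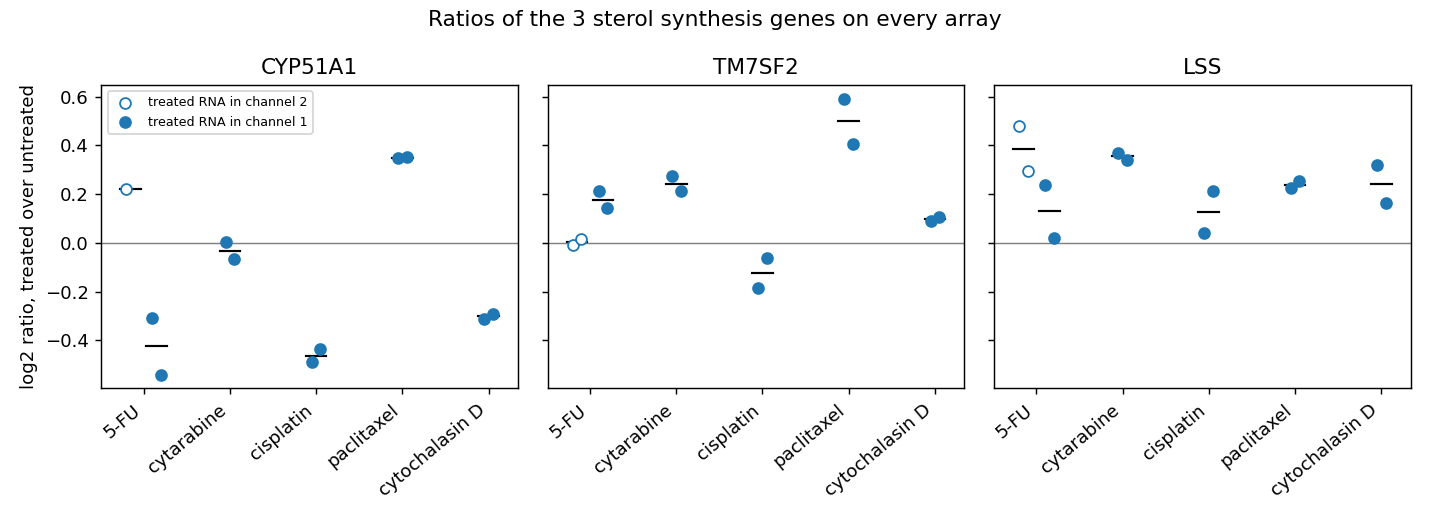
Log2 ratio of treated over untreated RNA (vertical axis, array-centred) for CYP51A1, TM7SF2 and LSS in each of 5 drugs; each point is 1 array, filled where treated RNA was in channel 1 and open where it was in channel 2, and bars are means of arrays of 1 orientation. CYP51A1 runs between 0.35 on the paclitaxel arrays and -0.54 on a 5-FU array, and all 12 LSS points lie above 0.

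Arrays with treated RNA in channel 1 exist for every drug, so the drugs can be ordered without any term for the channel. For CYP51A1 the order of means was paclitaxel 0.35, cytarabine -0.03, cytochalasin D -0.30, 5-FU -0.42 and cisplatin -0.46, with the arrays of 5-FU overlapping those of both its neighbours. For TM7SF2 it was paclitaxel 0.50, cytarabine 0.24, 5-FU 0.18, cytochalasin D 0.10 and cisplatin -0.12, where 5-FU and cytarabine overlapped. For LSS it was cytarabine 0.35, cytochalasin D 0.24, paclitaxel 0.24, 5-FU 0.13 and cisplatin 0.13, where each neighbour after cytarabine overlapped the next. Cisplatin thus had the lowest mean of the 5 drugs for all 3 genes. Cisplatin was also lowest for 23.6% of the 4855 features with values in every drug, and for 2 of the 8 other sterol genes that could be ordered. Paclitaxel, highest for CYP51A1 and TM7SF2, was highest for 11.5% of those features and for 0 of the 8 other sterol genes.

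Differences between the 4 drugs hybridised in 1 orientation do not involve the channel. CYP51A1 was higher in paclitaxel than in cisplatin by 0.81 ± 0.07 (SE of the limma fit, 2 arrays per drug), a 1.76-fold difference. Its difference was 0.65 for paclitaxel minus cytochalasin D and 0.38 for paclitaxel minus cytarabine, with the same error. Cytarabine exceeded cytochalasin D by 0.27 and cisplatin by 0.43, and cytochalasin D exceeded cisplatin by 0.16. TM7SF2 had the same order of these 4 drugs: paclitaxel minus cisplatin was 0.62 ± 0.09 (1.54-fold), paclitaxel minus cytochalasin D 0.40 and paclitaxel minus cytarabine 0.26, which was 0.16 without paclitaxel replicate 1. Cytarabine minus cisplatin was 0.37 for TM7SF2, cytochalasin D minus cisplatin 0.22 and cytarabine minus cytochalasin D 0.14. For LSS the 6 differences ran between -0.12 and 0.23 with an error of 0.10, the highest being cytarabine minus cisplatin.

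**Figure D2:**
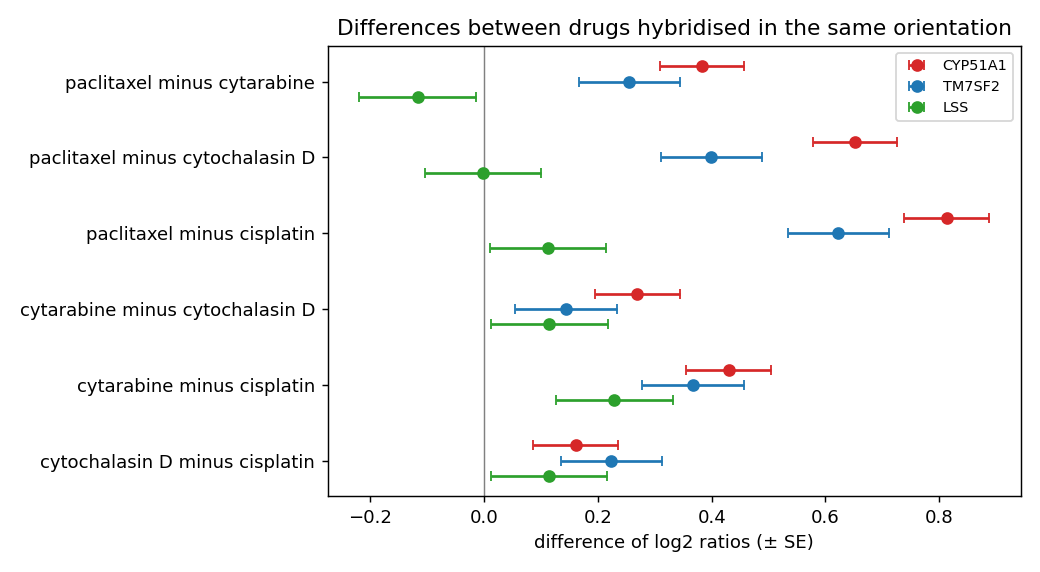
Differences of log2 ratios between pairs of drugs (rows; horizontal axis, first-named minus second-named drug, bars ± SE of the fit) for CYP51A1, TM7SF2 and LSS, from 2 arrays per drug in the same orientation. Paclitaxel minus cisplatin stands at 0.81 for CYP51A1 and 0.62 for TM7SF2, while the LSS points stay between -0.12 and 0.23.

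Against untreated cells the ratios depend on the channel effect, the part of a ratio that stays with the channel when the RNAs are swapped. Only 5-FU was hybridised both ways, so its arrays supplied this effect for the other 4 drugs. It was -0.11 and -0.06 for TM7SF2 and 0.12 and 0.14 for LSS in the 2 pairs of 5-FU arrays. For CYP51A1 it was 0.38, from a single pair, which is as large as the paclitaxel ratio itself. With the channel term the fitted CYP51A1 ratio was 0.73 ± 0.07 in paclitaxel, 0.35 ± 0.07 in cytarabine, 0.08 ± 0.07 in cytochalasin D and -0.08 ± 0.07 in cisplatin. Without it the values were 0.35, -0.03, -0.30 and -0.46, so the sign in cytarabine and cytochalasin D turned over. The sign in paclitaxel was above 0 and that in cisplatin below 0 both ways. With the channel term 5-FU could not be fitted for CYP51A1. Without it the 5-FU ratio was -0.23 ± 0.06, in which replicate 1 is a single array with treated RNA in channel 1, and the 1 complete pair of arrays averaged -0.16.

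The channel moved the other genes less. Fitted TM7SF2 ratios were 0.41 ± 0.08 in paclitaxel (1.33-fold), 0.16 ± 0.08 in cytarabine, 0.09 ± 0.06 in 5-FU, 0.01 ± 0.08 in cytochalasin D and -0.21 ± 0.08 in cisplatin. Fitted LSS ratios were 0.48 ± 0.09 in cytarabine (1.40-fold), 0.37 ± 0.09 in paclitaxel, 0.37 ± 0.09 in cytochalasin D, 0.26 ± 0.07 in 5-FU and 0.25 ± 0.09 in cisplatin. All 5 LSS ratios stayed above 0 without the term, between 0.13 and 0.35. The median absolute ratio over all features was 0.09 in 5-FU, 0.17 in cytarabine, 0.16 in cisplatin, 0.14 in paclitaxel and 0.14 in cytochalasin D.

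**Figure D3:**
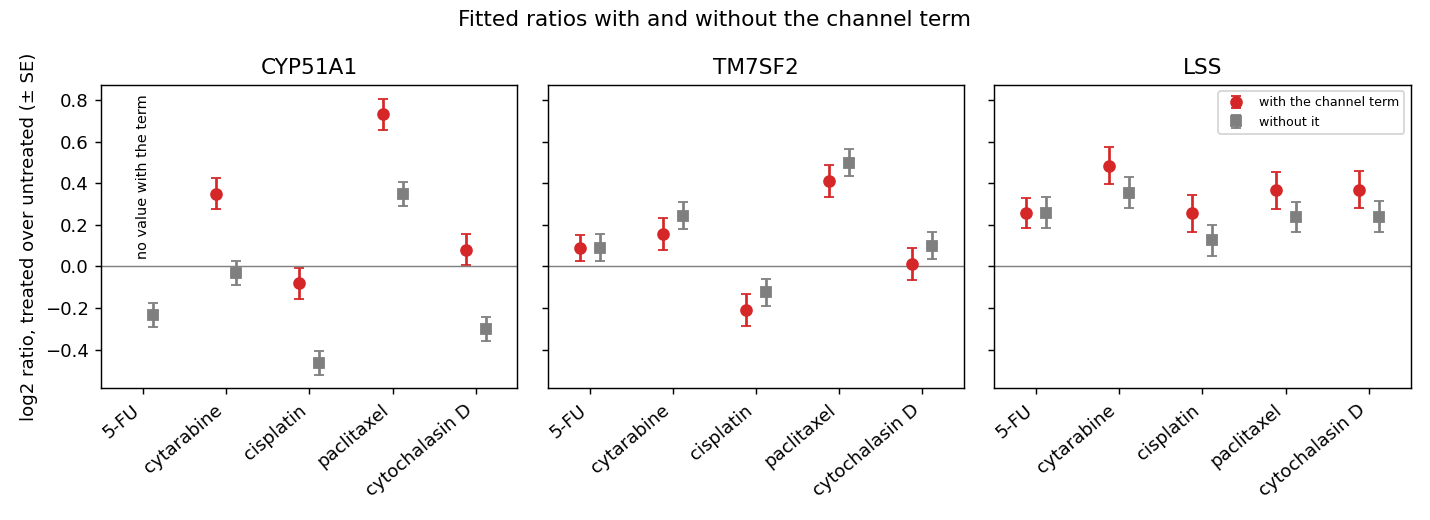
Fitted log2 ratio of treated over untreated RNA (vertical axis, ± SE) by drug for the 3 genes, with the channel term (red circles) and without it (grey squares). CYP51A1 moves by 0.38 between the fits, and in 5-FU it has a value only without the term, at -0.23; LSS is above 0 in both fits for every drug.

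Of 21 listed sterol synthesis genes 13 were on the array, and 10 of these were others than CYP51A1, TM7SF2 and LSS. By limma's moderated test, with p adjusted by Benjamini-Hochberg over all features and a threshold of 0.05, 1 of 6 tested genes fell and 0 rose in 5-FU, where 15.6% of all features passed, 4.44% as higher and 11.2% as lower. In cisplatin 1 of 8 rose and 1 fell, against 16.3% of features, 8.54% as higher and 7.8% as lower. In cytarabine 0 of 8 passed, against 22% of features, and 2 had an unadjusted p under 0.05. Paclitaxel had 0 of 8, against 6.69%, and 3 under 0.05 unadjusted, and cytochalasin D had 0 of 8, against 10.7%, and 2 under 0.05 unadjusted. In none of the 5 drugs did the count exceed by as much as 1 gene what the share over all features gives. LBR and NSDHL could not be tested in 5-FU with the channel term. Without the term 8 genes were tested in 5-FU and 10 in each other drug, and the share of all features passing is not given here. In that fit LBR and FDPS passed as lower in 5-FU and FDPS as lower in cytochalasin D. SQLE passed as higher and SC5D as lower in cytarabine, and NSDHL as higher in cisplatin. The median ratio of the tested list genes was -0.03 in 5-FU, -0.00 in cytarabine, 0.03 in cisplatin, 0.03 in paclitaxel and -0.00 in cytochalasin D, beside 0.01, 0.04, 0.01, 0.02 and 0.02 over all features.

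FDPS, which makes the farnesyl diphosphate from which both sterols and prenyl groups are built, fell in 5-FU. Its values were -0.65 and -0.85 with treated RNA in channel 1 and -0.49 and -0.20 with treated RNA in channel 2, all below 0. The fitted ratio was -0.55 ± 0.08 (1.46-fold lower, limma adjusted p = 0.00309). FDPS was higher in cisplatin than in 5-FU by 0.84 ± 0.13 (adjusted p = 0.00525), in cytarabine by 0.64 ± 0.13 (adjusted p = 0.0145) and in paclitaxel by 0.64 ± 0.13 (adjusted p = 0.0195), in comparisons where 14%, 17.9% and 10.9% of features passed. The paclitaxel and cytarabine differences lost their calls in some fits that left out a replicate: paclitaxel without either replicate of paclitaxel or 5-FU (0.54 to 0.74) and without the channel term (0.44), cytarabine without 5-FU replicate 2 (0.54) or cytarabine replicate 2 (0.58). MVK and HMGCS1, of the mevalonate steps, had no 5-FU values and their means in the other drugs lay between -0.06 and 0.12. IDI1, which isomerises isopentenyl diphosphate, lay between -0.16 and 0.17 in the fit and passed in no drug.

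SQLE, the epoxidase that makes the substrate of LSS, read 0.35 and 0.23 in cytarabine, -0.37 and -0.11 in cisplatin, 0.11 and 0.04 in paclitaxel and -0.19 and -0.11 in cytochalasin D. It was higher in cytarabine than in cisplatin by 0.53 ± 0.10 (limma adjusted p = 0.0128), where 22.1% of features passed. That call ended without cytarabine replicate 1 (0.47) or cisplatin replicate 1 (0.40). Cytarabine was above cisplatin for SQLE, as it was for LSS, CYP51A1 and TM7SF2, but the other genes of the list were divided. HMGCS1, MVK, IDI1, FDPS, NSDHL and SC5D were lower in cytarabine than in cisplatin, and LBR, MSMO1 and DHCR7 higher. The median difference of the 10 other sterol genes was -0.09, beside -0.02 over all features. Of the 10 other sterol genes tested, SQLE was the only one higher in cytarabine than in cisplatin past the threshold, and NSDHL was the only one lower.

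NSDHL, which works after TM7SF2 in removing methyl groups, rose in cisplatin. Both CYP51A1 arrays read below 0 there, but with the channel term CYP51A1 was -0.08 ± 0.07. NSDHL values were 0.66 and 0.33 in cisplatin, -0.01 and 0.09 in cytarabine, 0.16 and 0.04 in paclitaxel and 0.03 and 0.14 in cytochalasin D. In 5-FU NSDHL read 0.18 and -0.20 with treated RNA in channel 1. With treated RNA in channel 2 it read 0.61 on 1 array and was missing on the other, and the 1 complete pair averaged 0.39. The fitted ratio in cisplatin was 0.71 ± 0.13 (1.64-fold, limma adjusted p = 0.0139), with the channel effect taken from 1 pair, and was 0.50 without the channel term. Without cisplatin replicate 1 it was 0.55 and no longer passed. Cytarabine minus cisplatin was -0.45 ± 0.13 (adjusted p = 0.0469). The call of that difference ended under most of the other settings, among them leaving out cisplatin replicate 1 (-0.29), either cytarabine replicate (-0.40 and -0.50), or any replicate of paclitaxel or cytochalasin D (-0.45).

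LBR, the nuclear-membrane counterpart of TM7SF2, read -0.26 and -0.49 in cisplatin, -0.23 and -0.24 in cytarabine, -0.33 and -0.31 in paclitaxel and -0.08 and -0.02 in cytochalasin D. In 5-FU its 3 values ran between -1.52 and -0.40, and only the fit without the channel term covered that drug, where it passed as lower at -0.98 ± 0.21 (limma adjusted p = 0.0144). That fit takes replicate 1 from the single array at -1.52. With the channel term LBR fell in cisplatin (-0.41 ± 0.10, limma adjusted p = 0.0350). This call ended without cisplatin replicate 2 (-0.29), without any single replicate of cytarabine, paclitaxel or cytochalasin D (-0.41 each), without the channel term (-0.37), with every array as its own observation (-0.13), and with scaled arrays (-0.38). In paclitaxel, where TM7SF2 had its highest values, LBR had a fitted ratio of -0.35 ± 0.10 (adjusted p = 0.0800). The later enzymes MSMO1, SC5D and DHCR7 passed in no drug. SC5D stayed between -0.11 and 0.08 in the fit and MSMO1 between 0.02 and 0.20. DHCR7, which reduces a late ring double bond, ran between -0.39 and -0.18 in the fit, with 1 of its 4 5-FU arrays at -1.13. Its channel effect was -0.01 in one pair of 5-FU arrays and -0.65 in the other, and without the term it read 0.15 in cytarabine, 0.00 in cisplatin, -0.05 in paclitaxel and -0.06 in cytochalasin D.

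**Figure D4:**
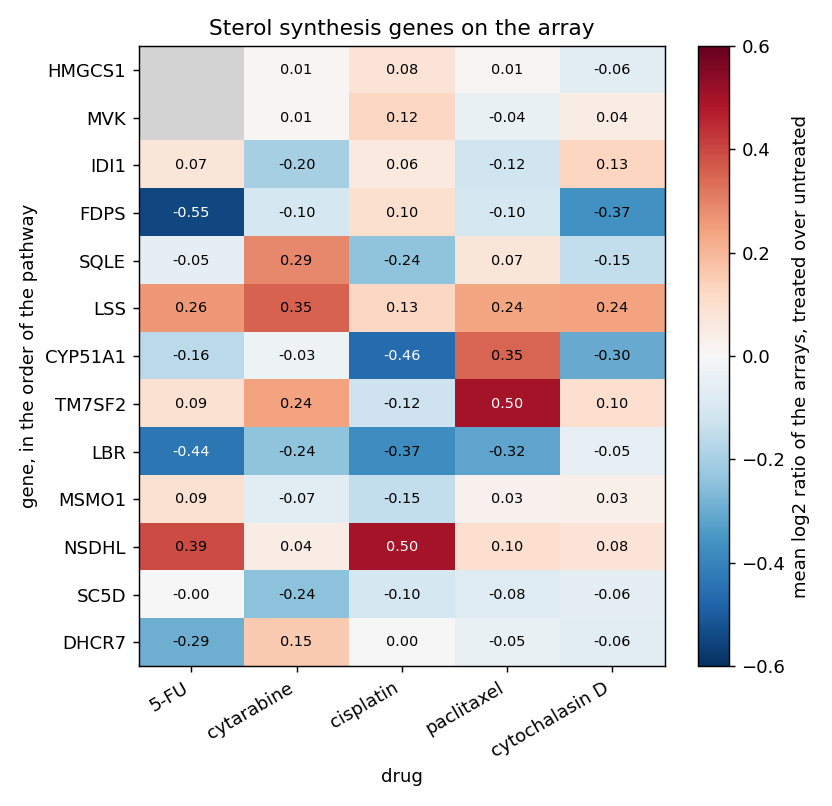
Mean log2 ratio of treated over untreated RNA (colour and number, no channel term) for the 13 sterol synthesis genes on the array (rows, in pathway order) in 5 drugs (columns); the 5-FU column is the mean of complete orientation pairs, 1 pair for CYP51A1, LBR and NSDHL, and grey marks no value. Paclitaxel is highest for CYP51A1 and TM7SF2, at 0.35 and 0.50, and NSDHL is highest in cisplatin, at 0.50, where CYP51A1 is -0.46.

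Between pairs of drugs, 0 of the 10 other sterol genes passed in paclitaxel minus cisplatin, the pair with the largest CYP51A1 and TM7SF2 differences (limma, 5.8% of features passed, 2 of the 10 with unadjusted p under 0.05). The count was also 0 in paclitaxel minus cytarabine (0% of 6558 features, 0 of the 10 unadjusted), paclitaxel minus cytochalasin D (0.204% of features, 1 unadjusted), cytarabine minus cytochalasin D (3.2% of features, 3 unadjusted) and cytochalasin D minus cisplatin (7.74% of features, 3 unadjusted), and 0 of the 6 tested passed in cytochalasin D minus 5-FU (11.1% of features, 1 unadjusted).

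Genes that sense, import or use sterols were read from lists of the same kind. MBTPS1, the protease that makes the first cut of SREBP in the Golgi, rose in cisplatin, where its arrays read 0.45 and 0.57 and the fitted ratio was 0.51 ± 0.07 (limma adjusted p = 0.00458). On all arrays of the other drugs it lay between -0.17 and 0.03. It was 1 of 8 tested genes of sterol sensing and uptake to pass in cisplatin, a share no higher than the 16.3% of all features. SREBF2, which encodes the main sterol-responsive SREBP, passed in cytarabine at 0.39 ± 0.10 (adjusted p = 0.0371), with array values of 0.49 and 0.28. STARD4, a carrier of cholesterol between membranes, passed in cytarabine at 0.25 ± 0.06 (adjusted p = 0.0262) and in cytochalasin D at 0.28 ± 0.06 (adjusted p = 0.0271). The SREBF2 call ended without either replicate of cytarabine, cisplatin, paclitaxel or cytochalasin D (0.28 to 0.49), without the channel term (0.38), with scaled arrays (0.36) and with arrays entered singly (0.75). Without the channel term SREBF2 passed as lower in 5-FU (-1.15 ± 0.27, adjusted p = 0.0236), where its 3 arrays read -0.42, -0.42 and -1.87. The STARD4 calls were lost when the channel term was omitted (0.08 in cytarabine and 0.12 in cytochalasin D), when 5-FU replicate 2 was left out (0.21 and 0.25), and when either replicate of the drug itself or of cytochalasin D was left out (0.24 to 0.29). The STARD4 call in cytarabine was also lost with scaled arrays (0.22). In cytarabine 2 of the 8 tested genes rose, against 22% of all features passing, and in cytochalasin D 1 of 8, against 10.7%. The count was 0 of 8 in 5-FU (15.6% of features, 2 of the 8 under an unadjusted p of 0.05) and 0 of 8 in paclitaxel (6.69% of features, 1 of the 8).

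CYB5B, a cytochrome b5 of the outer mitochondrial membrane and one of 2 tested genes on the list of electron donors, rose in cisplatin. Its values there were 0.85 and 1.08, and every other array read between -0.23 and 0.14. The fitted ratio was 0.85 ± 0.10 (1.80-fold, limma adjusted p = 0.00313). It was 1 of the 2 tested to pass in cisplatin, against 16.3% of all features. Of the oxysterol and bile acid genes 2 of 2 tested passed in cytarabine, against 22% of features. In cytochalasin D 1 of 2 passed, against 10.7%. In paclitaxel 0 of 2 passed, against 6.69%, and 2 had an unadjusted limma p under 0.05. In 5-FU 0 of 1 passed, against 15.6%, and 1 was under 0.05 unadjusted. In cisplatin 0 of 2 passed, with 0 under 0.05 unadjusted. CYP7B1, a P450 that hydroxylates oxysterols, fell in cytarabine, with values of -1.06 and -0.89 and a fitted ratio of -0.77 ± 0.11 (1.70-fold lower, adjusted p = 0.00357). It also fell in cytochalasin D (-0.52 ± 0.11, adjusted p = 0.0259), a call that ended without 5-FU replicate 1 (-0.43) or cytochalasin D replicate 1 (-0.37). CYP27A1, a mitochondrial sterol hydroxylase, passed as lower in cytarabine (-0.44 ± 0.11, adjusted p = 0.0356). It no longer passed in a fit that omitted the channel term (-0.15) or either replicate of cytarabine (-0.38 and -0.49) or of paclitaxel (-0.44). Nor did it pass with scaled arrays (-0.405). Without the channel term CYP7B1 also passed as lower in paclitaxel, and CYP27A1 passed as higher in 5-FU and cisplatin. The share of all features passing in that fit is not given here.

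Of 8 fatty acid synthesis genes on the array, 2 of 5 tested passed in 5-FU (15.6% of all features) and 2 of 6 in cytarabine (22%). The counts were 1 of 6 in cisplatin (16.3%), 1 of 5 in paclitaxel (6.69%) and 1 of 6 in cytochalasin D (10.7%). FADS1, a desaturase, fell in 5-FU at -0.42 ± 0.06 (limma adjusted p = 0.00241), with all 4 arrays between -0.58 and -0.21. ELOVL6, which lengthens fatty acid chains and is an SREBP target, fell in cytarabine at -0.66 ± 0.09 (adjusted p = 0.0031), where its arrays read -0.32 and -0.17, and the ratio without the channel term was -0.25. Its channel effect was large: in 5-FU it read 0.78 and 0.72 with treated RNA in channel 1 and -0.17 and 0.03 in channel 2. Its ratios passed as higher in 5-FU (0.34) and lower in cisplatin (-0.47) and cytochalasin D (-0.42), and without the channel term the values in cisplatin and cytochalasin D were -0.06 and -0.01 and did not pass. Without either 5-FU replicate the 5-FU value was 0.37 and 0.30 and did not pass. The cisplatin and cytochalasin D calls also ended without 5-FU replicate 1 (-0.40 and -0.35) and without either replicate of the drug itself (-0.50 to -0.36). ELOVL5, its relative for polyunsaturated chains, fell in cytarabine (-0.40 ± 0.08, adjusted p = 0.0174) and paclitaxel (-0.41 ± 0.08, adjusted p = 0.0304). The cytarabine call ended without cytarabine replicate 2 (-0.36), and the paclitaxel call without either replicate of cisplatin, paclitaxel or cytochalasin D (-0.46 to -0.37).

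On the list of sterol efflux genes LPCAT3, an LXR target that remodels phospholipids, passed in 5-FU at 0.57 ± 0.15 (limma adjusted p = 0.0364), and without 5-FU replicate 2, which holds a value of 1.42, it was 0.36 and did not pass. Its call also ended without any single replicate of paclitaxel or cytochalasin D (0.57 each), with scaled arrays (0.52) and with the replicate block (0.57). It was 1 of 2 tested in 5-FU, against 15.6% of all features. In each other drug 0 of 4 passed by limma, against 6.69 to 22% of features, with 1 of the 4 under an unadjusted p of 0.05 in cisplatin and 0 in cytarabine, paclitaxel and cytochalasin D. In the isoprenoid branch, which uses the product of FDPS to prenylate proteins, 0 of 4 genes passed in 5-FU, against 15.6% of all features and with 0 under an unadjusted p of 0.05, and 2 of 5 in cytarabine, against 22%. These were RABGGTB, a subunit of the enzyme that prenylates Rab proteins, at -0.41 ± 0.10 (adjusted p = 0.0278), and ICMT, which methylates prenylated proteins, at 0.34 ± 0.09 (adjusted p = 0.0408). RABGGTB lost its call without either cytarabine replicate (-0.38 and -0.44), with arrays entered singly (-0.41) and with scaled arrays (-0.36). ICMT lost its call without any single replicate other than cytarabine replicate 2, its value being 0.17 without cytarabine replicate 1. The ICMT call also ended without the channel term (0.22) and with scaled arrays (0.30). Of the epithelial markers 4 of 5 were on the array and 1, KRT8, could be tested against untreated cells with the channel term. KRT8 passed as lower in cytochalasin D (-0.30 ± 0.07, adjusted p = 0.0298), where 10.7% of all features passed. That call ended without either replicate of 5-FU or cytochalasin D (-0.34 to -0.26). Without the term 4 were tested in cytarabine, cisplatin, paclitaxel and cytochalasin D and 2 in 5-FU. In that fit KRT18 passed as lower in cisplatin and KRT8 as lower in cytochalasin D. The share of all features passing in that fit is not given here. Of the leukocyte markers 2 of 3 were on the array and 1, CD14, could be tested. It passed as higher in 5-FU (0.55 ± 0.13, adjusted p = 0.0265) and cisplatin (0.68 ± 0.16, adjusted p = 0.0273), where 15.6% and 16.3% of all features passed. These are the drugs in which FDPS, NSDHL and LBR were called. The CD14 calls ended without either replicate of the drug itself (0.47 to 0.76). In cisplatin the CD14 call also ended without 5-FU replicate 1 (0.53) and without the channel term (0.46). The part of this marker in the results was not tested. PTPRC, the general leukocyte marker, had a value on 1 of the 12 arrays. Of the fibroblast markers COL1A1 alone was on the array and could not be tested against untreated cells with the channel term.

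The named genes closest to each enzyme over the arrays were found by the root mean square difference of ratios over at least 10 arrays, a description that includes the shared channel and array effects. For CYP51A1 these were FBXL14 (0.188), SEPHS2 (0.211), MAP1B (0.223), SLC31A1 (0.226) and MST1R (0.234), beside a median of 0.409 over 3548 genes. For TM7SF2 they were PTPN13 (0.108), DCUN1D3 (0.108), GPM6A (0.122), RABGAP1L (0.131) and SLC12A4 (0.135), beside a median of 0.326 over 3738 genes. For LSS they were CD59 (0.0948), NSF (0.111), SKI (0.124), SLC4A8 (0.129) and MXD4 (0.137), beside a median of 0.335. No other sterol synthesis gene was among these 15. Between the 3 enzymes the differences were 0.241 for TM7SF2 and LSS, 0.375 for CYP51A1 and TM7SF2, and 0.452 for CYP51A1 and LSS.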

How the data were processed

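Log2 ratios: the authors deposited 1 normalised log ratio of channel 1 and channel 2 per probe and array. How the ratio was normalised and spots were filtered, its log base and its numerator were not given in the sources used here. Spot intensities were not used here, so signal over background is unknown. Of 8170 probes in the table, the platform annotation pairs 5930 with a single gene (1 gene_symbol), 79 with several and 2161 with none. Ratios were turned to treated over untreated and centred on the array median, and probes of a gene were averaged, giving 7739 features. A probe with no gene stayed in as its own feature.

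In R 4.3.3, limma 3.58.1 fitted a linear model to 10 replicates, 2 per drug. A 5-FU replicate was the mean of its 2 orientations. The difference between an array's ratio and the mean of its orientation pair entered as 1 observation of the channel effect, weighted 4 with 2 pairs and 2 with 1. Its error is assumed from that weight, so errors against untreated RNA may be too small for the other 4 drugs. Features needed values in both replicates. P-values were adjusted by Benjamini-Hochberg over all features tested in a comparison. The fit was tested on simulated data.

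The 3 genes, the gene lists and the tests were chosen with earlier results of these data known. Differences between pairs of drugs, and the alternatives for them and for the markers KRT8 and CD14, were added after seeing the data. The genes named are the 3 enzymes, the measured sterol synthesis genes, up to 4 passing genes per other list with the largest ratio, the 5 closest genes to each enzyme, and MDM2 for direction. CDKN1A, also part of the rule for direction, and the markers KRT8, KRT18, CD14, PTPRC and COL1A1 fall outside this rule. Alternatives were no channel term, no centring, arrays entered singly, scaled arrays, complete probes, a replicate block, single orientations of 5-FU and natural logarithms. Each replicate was also left out in turn, after which its lone partner takes the spread of the other drugs.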

Additional observations from a re-analysis of the deposited data

How the results depend on the processing

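Without the channel term the features passing numbered 1070 in 5-FU, 1719 in cytarabine and 668 in paclitaxel. Of the sterol synthesis genes other than the 3 enzymes, 2 of 8 tested passed in 5-FU and 2 of 10 in cytarabine. The count was 1 of 10 in cisplatin, 1 of 10 in cytochalasin D and 0 of 10 in paclitaxel. Fewer of these genes were tested with the term, 6 in 5-FU and 8 in each other drug. The share of all features passing without the term is not given here, so these counts have no background. With arrays scaled to the same spread 558 features passed in cytarabine, and with each array entered singly 325 passed in cytochalasin D. The cisplatin count of sterol genes was also 1 with arrays scaled, with arrays entered singly, with complete probes and with the replicate block. Without the channel term CYP51A1 was -0.033 in cytarabine and -0.30 in cytochalasin D, both reversed, -0.46 in cisplatin and 0.35 in paclitaxel; TM7SF2 was 0.24 in cytarabine and 0.10 in cytochalasin D; LSS was 0.35 in cytarabine, 0.13 in cisplatin, 0.24 in paclitaxel and 0.24 in cytochalasin D. The LSS differences paclitaxel minus 5-FU (-0.021) and cytochalasin D minus 5-FU (-0.019) then also reversed. These moves of the 3 enzymes follow from leaving out the term, which is the channel effect of the 5-FU arrays. The counts above do not rest on the term alone. The fit without it also took in features with no channel estimate, and 5-FU replicates read from a single array. With arrays entered singly CYP51A1 was 0.29 in cytarabine, -0.14 in cisplatin, 0.67 in paclitaxel and 0.022 in cytochalasin D. With scaled arrays it was 0.78 in paclitaxel and 0.022 in cytochalasin D, TM7SF2 was 0.031 in cytochalasin D and LSS was 0.42 in cytarabine; the cause was not tested. The 5-FU arrays with treated RNA in channel 2 alone gave 0.0034 for TM7SF2, and those with treated RNA in channel 1 alone gave 0.18. If the deposited values were natural logarithms, the log2 ratio would be 0.50 in cytarabine, 1.06 in paclitaxel and 0.12 in cytochalasin D for CYP51A1; 0.13 in 5-FU, 0.23 in cytarabine, -0.30 in cisplatin and 0.59 in paclitaxel for TM7SF2; and 0.70 in cytarabine, 0.53 in paclitaxel and 0.53 in cytochalasin D for LSS.

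Leaving out 1 replicate at a time, the features passing ranged between 459 and 600 in 5-FU, 408 and 954 in cytarabine, 343 and 746 in cisplatin, 86 and 320 in paclitaxel, and 118 and 461 in cytochalasin D. In each drug the lowest count came without 1 of its own replicates (replicate 1 for 5-FU, cisplatin and paclitaxel, replicate 2 for cytarabine and cytochalasin D). The sterol genes passing ranged between 1 and 3 in 5-FU, 0 and 1 in cytarabine, 1 and 3 in cisplatin, 0 and 1 in paclitaxel, and 0 and 1 in cytochalasin D. TM7SF2 in cytochalasin D ranged between -0.013 and 0.038 and was below 0 without 5-FU replicate 2. Same-numbered replicates of different drugs did not deviate together (correlations between -0.06 and 0.09 over pairs of drugs). Such values cannot tell whether samples with the same number were handled together. With the replicate block FDPS still passed in 5-FU (limma adjusted p = 0.00664), and LBR in cisplatin did not (adjusted p = 0.051). The calls of FDPS and FADS1 in 5-FU, MBTPS1 and CYB5B in cisplatin, and CYP7B1 and ELOVL6 in cytarabine held under every alternative that gave them a value. Each enzyme has 1 probe, so no second probe could be compared, and complete probes gave no value for CYP51A1. SREBF2 and KRT8 have 2 probes each, which were averaged and not fitted singly. Precision is limited by 2 arrays per drug, by missing values on the 5-FU arrays, and by a channel effect that rests on 1 pair of arrays for CYP51A1, NSDHL, LBR, SREBF2, CYB5B, CYP27A1 and ELOVL5.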
